A study of Mus musculus with 15 samples.

Results

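The genes described here carry out glycolysis, which splits glucose into pyruvate and lactate, or belong to the cellular response to low oxygen. A list of 32 such mouse genes was taken, and each was represented by its brightest probe set (mean of 15 arrays) among those annotated with that symbol alone. This gave 28 of the 32 genes, out of 17097 genes tested in all. The other 4 (Gpi1, Pgam1, Eno1 and P4ha1) had no such probe set and were not analysed here.

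The arrays measured LSK cells, marrow cells that lack lineage markers and carry Sca-1 and Kit, among which are the blood-forming stem cells and their earliest descendants. Marrow of female C57Bl/6 mice treated with 5-fluorouracil (5-FU) was infected with a retrovirus, either MSCV-HOXB4-ires-YFP or the control MSCV-ires-GFP, and given to lethally irradiated recipients of the same strain. LSK cells sorted for YFP formed the HOXB4 groups at 6, 12 and 20 weeks after transplantation, and those sorted for GFP formed the control groups at 12 and 20 weeks, with 3 arrays per group. The times are those of the sample titles, whereas the series text gives 24 weeks for the last one. HOXB4 is a homeobox transcription factor that expands blood stem cells when overexpressed. In both vectors the viral promoter drives expression in infected cells and their progeny, and the control cells were also infected, transplanted and taken from 5-FU-treated marrow. The labels do not say whether the arrays of a group came from separate mice, so the p-values measure the spread between arrays, which may be technical.

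Glycolysis starts when glucose enters through transporters of the GLUT family and is phosphorylated by hexokinases. Phosphofructokinase commits the sugar to the pathway, aldolase cleaves it into triose phosphates, and the later enzymes convert these to pyruvate with a gain of ATP. Lactate dehydrogenase interconverts pyruvate and lactate, monocarboxylate transporters move lactate across the membrane, and pyruvate dehydrogenase kinases hold pyruvate back from the mitochondria. The transcription factor HIF-1 activates many of these genes in low oxygen, and prolyl hydroxylases of the EGLN family mark its alpha subunit for degradation when oxygen is present. Blood stem cells live in a marrow of low oxygen tension and are known for their reliance on glycolysis.

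Promoter sequence is shown for the 4 genes that were lower in HOXB4 cells at both 12 and 20 weeks (Pfkp, Aldoa, Tpi1 and Egln3) and for the 1 gene that was higher at 12 weeks (Ddit4), because the core letters bound by HIF-1, ACGTG and GCGTG, can be read in them. These genes were chosen after their values were seen. Each line gives the 250 bases before an annotated transcription start, 5′ to 3′ on the strand of the gene, from RefSeq on build GRCm38.p6. Capitals mark a match to either word on either strand, so that a match on the opposite strand appears as CACGT or CACGC. All 5 genes lie on the minus strand.

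Pfkp, chr13:6648772-6649021: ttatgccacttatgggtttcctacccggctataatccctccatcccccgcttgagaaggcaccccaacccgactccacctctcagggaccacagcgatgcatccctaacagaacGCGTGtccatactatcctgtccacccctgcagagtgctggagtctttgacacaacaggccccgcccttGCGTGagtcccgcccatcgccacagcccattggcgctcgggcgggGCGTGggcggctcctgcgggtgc
Aldoa, chr7:126799179-126799428: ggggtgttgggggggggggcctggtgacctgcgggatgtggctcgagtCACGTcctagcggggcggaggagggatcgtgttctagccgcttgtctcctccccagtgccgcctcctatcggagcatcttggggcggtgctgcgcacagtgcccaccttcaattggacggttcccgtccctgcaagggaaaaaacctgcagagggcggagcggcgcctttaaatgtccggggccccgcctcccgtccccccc
Tpi1, chr6:124814159-124814408: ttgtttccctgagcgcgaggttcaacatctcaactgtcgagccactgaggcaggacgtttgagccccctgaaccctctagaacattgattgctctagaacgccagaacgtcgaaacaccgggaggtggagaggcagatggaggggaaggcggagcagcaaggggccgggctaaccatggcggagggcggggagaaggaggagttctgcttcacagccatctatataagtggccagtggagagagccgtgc
Egln3, chr12:54203875-54204124: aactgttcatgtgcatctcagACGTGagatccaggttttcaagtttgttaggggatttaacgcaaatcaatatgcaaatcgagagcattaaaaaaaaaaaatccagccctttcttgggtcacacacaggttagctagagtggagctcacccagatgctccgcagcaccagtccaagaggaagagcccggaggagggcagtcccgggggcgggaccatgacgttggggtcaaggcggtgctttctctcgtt
Ddit4, chr10:59951771-59952020: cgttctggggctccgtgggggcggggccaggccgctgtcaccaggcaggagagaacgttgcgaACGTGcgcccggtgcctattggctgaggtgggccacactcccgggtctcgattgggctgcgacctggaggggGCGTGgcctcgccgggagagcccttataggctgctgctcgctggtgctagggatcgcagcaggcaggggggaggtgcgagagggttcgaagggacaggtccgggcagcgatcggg

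Pfkp held GCGTG at 136, 68 and 23 bases before the start, Aldoa held ACGTG on the opposite strand 202 bases before it, and Egln3 held ACGTG 229 bases before it. Ddit4 held both words, ACGTG at 187 and GCGTG at 115 bases. Tpi1 held neither word in this window. Of the 28 genes, 27 had an entry in the promoter table, with 39 entries in all, since some genes have several starts (Aldoa has 2 more). Among these entries 53.8% held ACGTG, 48.7% held GCGTG and 79.5% held either, against 16.6%, 28.2% and 38.6% of all 32851 promoters in the table. Entries of 1 gene can overlap, the genes were listed for their known place in these pathways, and a match of 5 letters describes a sequence and not a bound site.

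Of the whole series, the arrays were close in scale, with medians between 5.247 and 5.397 log2 units, and arrays within a group correlated at 0.969 to 0.995. The HOXB4 array of replicate 1 at 6 weeks stood apart in RNA quality, with a Gapdh control signal 3.76 log2 units higher at the 3′ end than at the 5′ end, against 0.81 to 2.02 on the other 14 arrays. Results of the 28 genes that use the 6-week group are therefore given with and without it. Kit, which defines the sort, was measured in every group, with means between 8.07 and 8.70. The 2 ends of this range were the vectors at 12 weeks, 8.07 ± 0.11 in HOXB4 and 8.70 ± 0.09 in GFP cells (SD, n = 3). At 20 weeks the means were 8.11 ± 0.25 and 8.40 ± 0.07, so this sort marker was not level between vectors. Ly6a, which encodes Sca-1, was not named on the array. The tested mouse Hoxb4 probe set did not pass between vectors (-0.30 ± 0.24 at 12 weeks and -0.15 ± 0.24 at 20 weeks, log2 ± SE). Whether it can detect the vector's transcript is not known.

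The signal of the 28 genes spanned the range of the array. Eno2, the neuronal enolase, read between 2.81 and 3.47 and lay below the brightest nonspecific control probe set on all 15 arrays, and Aldoc, the brain aldolase, did so on 5. The other 26 genes lay above it on every array. Gapdh was at 12.61 to 13.20 on the 15 arrays. The median SD among replicate arrays of the 28 genes was 0.10 for GFP and 0.12 for HOXB4 arrays at 12 weeks, 0.16 and 0.22 at 20 weeks, and 0.25 for the 6-week arrays.

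**Figure D1:**
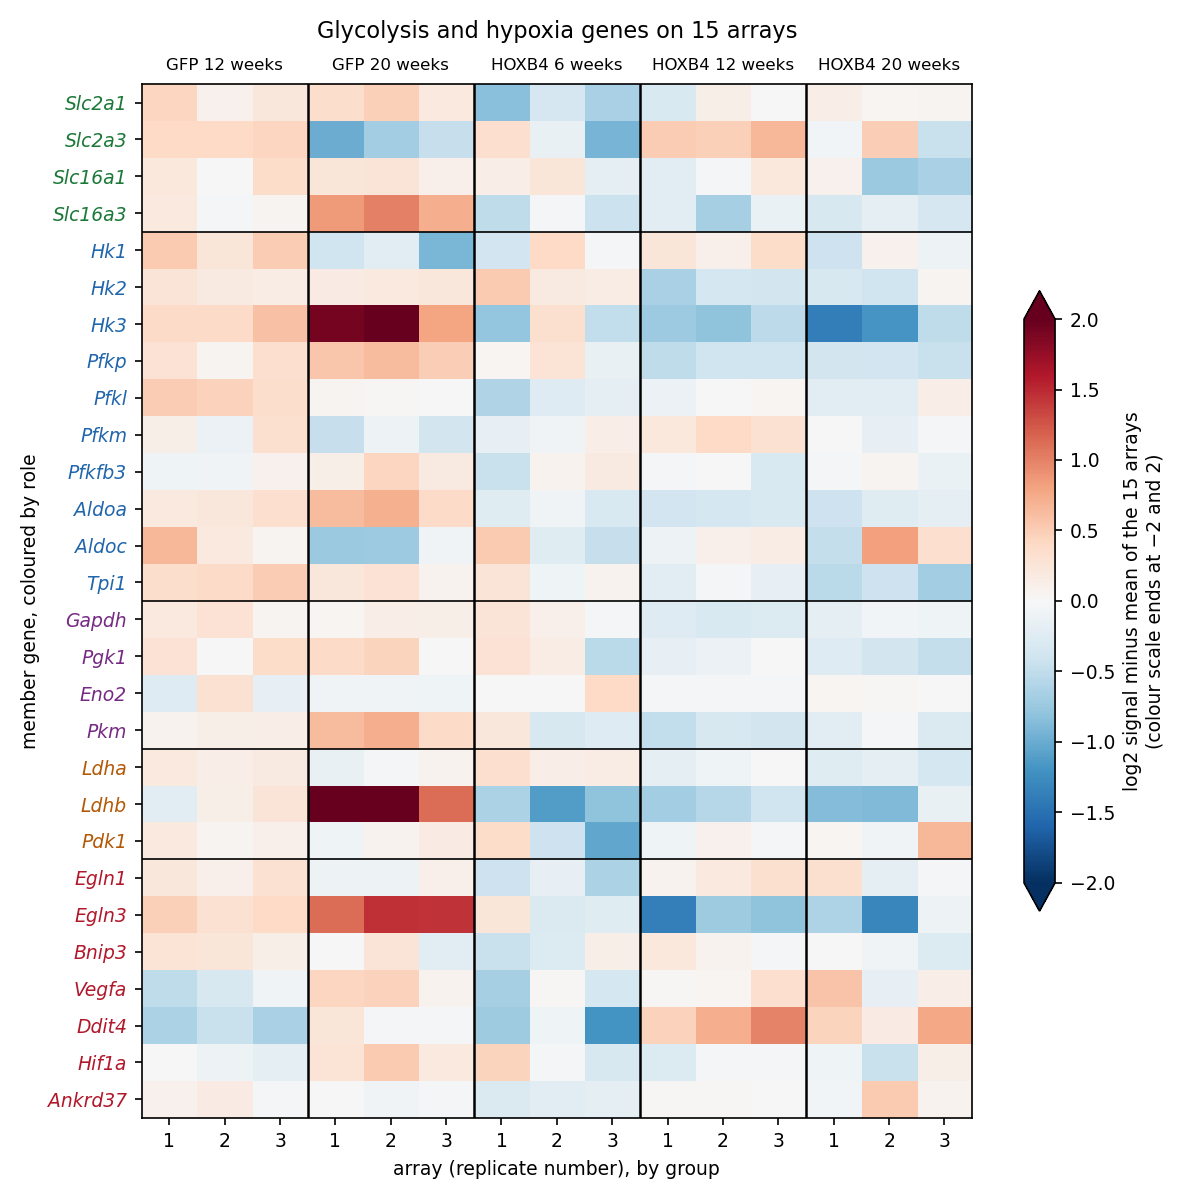
Log2 signal of the 28 genes on each of the 15 arrays, as the difference from the gene's mean over all arrays (colour, clipped at -2 and 2), with arrays in columns by group and genes in rows by role (green transport, blue hexose steps, purple triose steps, orange fate of pyruvate, red oxygen sensing and other hypoxia genes). Hk3, Ldhb and Egln3 are highest on the GFP arrays at 20 weeks, and Ddit4 has its highest group mean on the HOXB4 arrays at 12 weeks.

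The first comparison asked how the genes differed between HOXB4 and GFP cells of the same age. At 12 weeks 6 of the 28 were lower in HOXB4 cells (Hk2, Pfkp, Aldoa, Tpi1, Gapdh and Egln3) and Ddit4 was higher, at an adjusted p under 0.05 in limma with Benjamini-Hochberg adjustment over all genes. Among all 17097 genes 4.02% passed, 2.20% lower and 1.82% higher. At 20 weeks 9 of the 28 were lower (Hk3, Pfkp, Aldoa, Tpi1, Pgk1, Pkm, Ldhb, Slc16a3 and Egln3) and none was higher, against 8.95% of all genes, 5.18% lower and 3.77% higher. Pfkp, Aldoa, Tpi1 and Egln3 were lower at both times, which is 66.7% of the 6 and 44.4% of the 9. The same shares over all genes were not counted, so this overlap is not read as particular to the 28. The median difference of the 28 genes was -0.25 log2 units at both times, against -0.02 and 0.02 over all genes, and 23 of the 28 lay below 0 at 12 weeks and 19 at 20 weeks. The arrays of the 2 vectors did not overlap for any gene that passed. Nor did they for 8 of the 21 that did not pass at 12 weeks and 9 of the 19 at 20 weeks. How many of all genes lacked overlap was not counted, so where non-overlap is given below for a gene that did not pass, no difference is read from it.

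Most of the 28 genes were bright. When the dimmest 1 in 3 genes were removed, 26 of the 28 remained, of which 6 were lower at 12 weeks and 10 at 20 weeks, against 340 and 851 of the 11398 genes tested. The count at 12 weeks fell when an array of that age was left out, and so did the count over all genes. It was 7 on all arrays, 4 without any one of the GFP arrays of that age (replicate 1, 2 or 3) and 2, Pfkp and Ddit4, without the HOXB4 array of replicate 1. Over all genes 688 passed on all arrays, 214, 362 and 223 without the GFP array of replicate 1, 2 and 3, and 234 without that HOXB4 array. Without the 6-week array of replicate 1, which enters through the shared spread, 10 genes passed at 12 weeks, with Hk3, Pfkl and Pkm added as lower. At 20 weeks 10 passed without it, with Hk2 added as lower. Over all genes 863 and 1785 then passed, against 688 and 1530. Over 24 alternative analyses of each gene, the 12-week call was kept by Pfkp and Ddit4 in all 24, by Egln3 in 23, by Aldoa in 22 and by Hk2, Tpi1 and Gapdh in 19 each. The 20-week call was kept in all 24 by 8 of the 9 genes and in 9 by Pgk1.

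**Figure D2:**
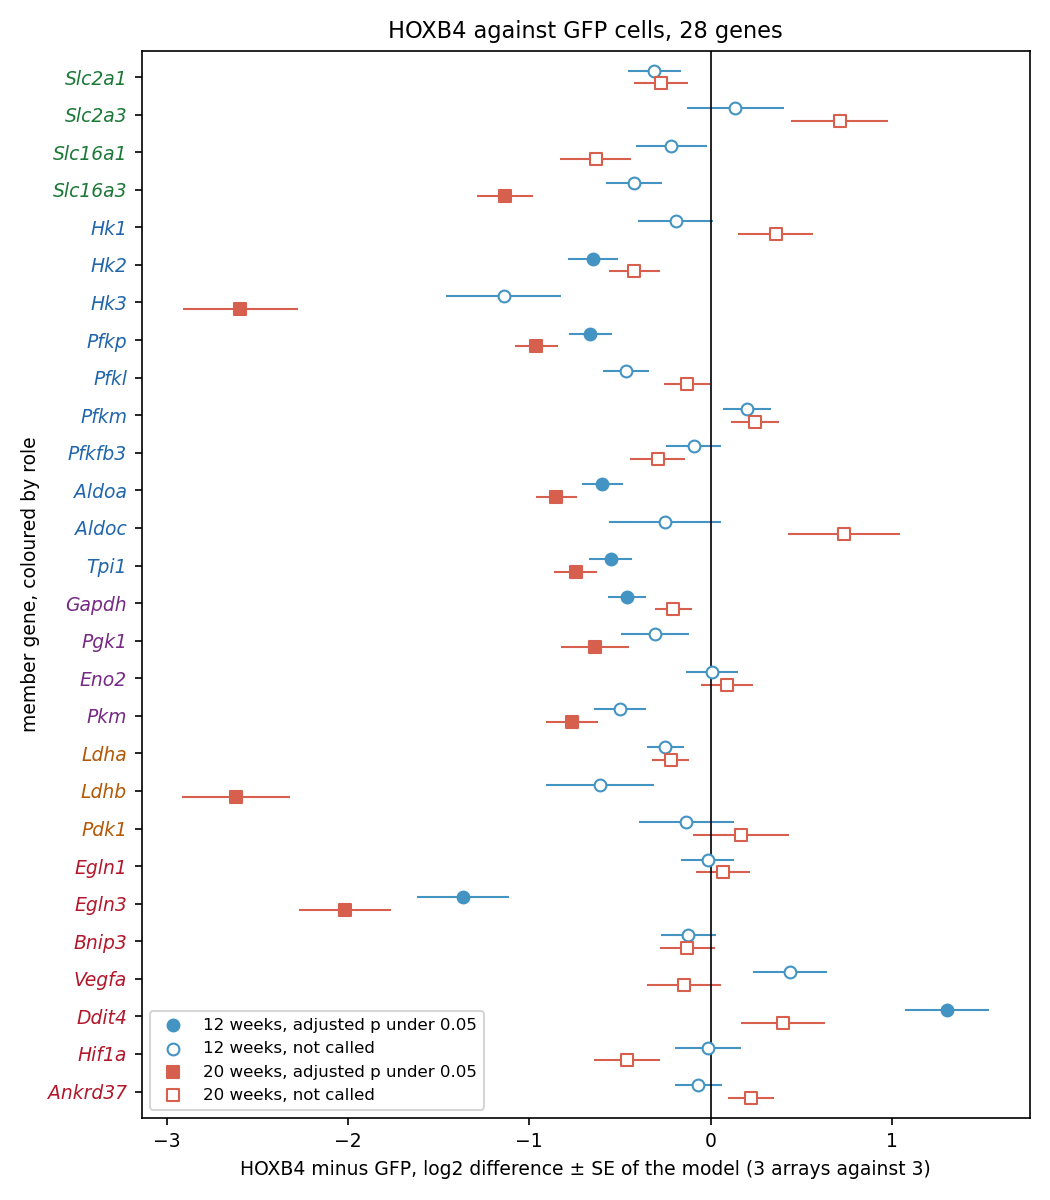
HOXB4 minus GFP log2 difference of each of the 28 genes at 12 weeks (blue circles) and 20 weeks (red squares), with bars of 1 SE of the model and filled symbols at an adjusted p under 0.05; gene names are coloured by role as in the map of array values. Filled symbols lie left of 0 except for Ddit4 at 12 weeks, at 1.31, and the points farthest left are Ldhb and Hk3 at 20 weeks, at -2.62 and -2.59.

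Among the 4 transporters, none passed in limma at 12 weeks (1 had an unadjusted p under 0.05) and 1 was lower at 20 weeks. Slc16a3 encodes MCT4, a monocarboxylate transporter that exports lactate from highly glycolytic cells. It read 5.61, 5.38 and 5.47 on the GFP arrays at 12 weeks and 5.18, 4.74 and 5.27 on the HOXB4 arrays, a difference of -0.42 ± 0.16 (adjusted p = 0.15). At 20 weeks it read 6.25, 6.42 and 6.13 in GFP cells and 5.09, 5.23 and 5.08 in HOXB4 cells, which was 2.19-fold lower (-1.13 ± 0.16, adjusted p = 0.000329). The groups did not overlap at either time, and the HOXB4 arrays stayed in 1 range while the GFP arrays were higher at 20 weeks. Slc16a1, which encodes the broadly expressed transporter MCT1, had a difference of -0.63 ± 0.20 at 20 weeks with an adjusted p of 0.0603. Of the glucose transporters, Slc2a1 (GLUT1) differed by -0.31 and -0.27 at 12 and 20 weeks and Slc2a3 (GLUT3) by 0.14 and 0.71, and none of these passed.

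The 10 measured genes of the hexose steps, from glucose to triose phosphates, held 4 that were lower at 12 weeks and 4 at 20 weeks. Hk2, the inducible mitochondria-bound hexokinase, read 8.31, 8.22 and 8.21 in GFP cells at 12 weeks and 7.40, 7.70 and 7.69 in HOXB4 cells, 1.57-fold lower (-0.65 ± 0.14, adjusted p = 0.0189). At 20 weeks it read 8.21, 8.25 and 8.28 against 7.72, 7.65 and 8.10, again without overlap, and -0.42 ± 0.14 did not pass (adjusted p = 0.0783). Hk3, a hexokinase found mainly in myeloid cells, had the larger differences. It read 8.81, 8.81 and 9.01 in GFP cells at 12 weeks and 7.70, 7.61 and 7.90 in HOXB4 cells, and -1.14 ± 0.32 did not pass (adjusted p = 0.0599). At 20 weeks it read 10.33, 10.43 and 9.21 against 7.03, 7.25 and 7.91, which was 6.03-fold lower (-2.59 ± 0.32, adjusted p = 0.000139). The arrays did not overlap at either time, and the third GFP array at 20 weeks lay more than 1 log2 unit below the other two. Hk1, the housekeeping hexokinase, differed by -0.19 and 0.36 and passed at neither time.

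Phosphofructokinase, the committing enzyme, has 3 subunit genes, and 1 of them passed. Pfkp, the platelet-type subunit, read 8.03, 7.80 and 8.08 in GFP cells and 7.23, 7.34 and 7.34 in HOXB4 cells at 12 weeks (-0.66 ± 0.12, 1.58-fold lower, adjusted p = 0.00734). The 20-week arrays read 8.29, 8.38 and 8.24 against 7.37, 7.35 and 7.30 (-0.96 ± 0.12, 1.95-fold lower, adjusted p = 0.000142). The 6 HOXB4 arrays at these times lay between 7.23 and 7.37, and the 6 GFP arrays between 7.80 and 8.38. Pfkl, the liver-type subunit, differed by -0.47 ± 0.13 at 12 weeks (adjusted p = 0.0528) and -0.13 at 20 weeks, and Pfkm, the muscle-type subunit, by 0.20 and 0.25, without passing. Pfkfb3, which makes the phosphofructokinase activator fructose 2,6-bisphosphate, differed by -0.09 and -0.29 and did not pass either.

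The aldolase and triose phosphate isomerase genes were lower at both times. Aldoa, the main aldolase of most tissues, read 10.70, 10.74 and 10.84 in GFP cells and 10.12, 10.16 and 10.21 in HOXB4 cells at 12 weeks (-0.60 ± 0.11, 1.51-fold lower, adjusted p = 0.0101). By 20 weeks the values were 11.15, 11.22 and 10.89 against 10.10, 10.27 and 10.34 (-0.85 ± 0.11, adjusted p = 0.000249). Every HOXB4 array at these times was below every GFP array. Tpi1, which interconverts the triose phosphates, read 9.49, 9.52 and 9.65 against 8.92, 9.13 and 8.98 at 12 weeks (-0.55 ± 0.12, 1.46-fold lower, adjusted p = 0.0196). The 20-week values were 9.37, 9.43 and 9.22 against 8.60, 8.74 and 8.45 (-0.74 ± 0.12, 1.67-fold lower, adjusted p = 0.00111). The highest HOXB4 array, 9.13 at 12 weeks, lay below the lowest GFP array, 9.22 at 20 weeks. Aldoc did not pass at either time and is given no difference, since all 3 of its GFP arrays at 20 weeks were among the 5 below the nonspecific control.

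Of the 4 measured genes of the triose steps, Gapdh was lower at 12 weeks and Pgk1 and Pkm at 20 weeks. Gapdh, the dehydrogenase often used as a reference gene, read 13.11, 13.20 and 12.96 in GFP cells at 12 weeks and 12.64, 12.61 and 12.63 in HOXB4 cells (-0.46 ± 0.10, 1.38-fold lower, adjusted p = 0.0234). Its 20-week values were 12.94, 13.04 and 13.02 against 12.71, 12.85 and 12.82, still without overlap, and -0.20 ± 0.10 did not pass (adjusted p = 0.267). The array's separate 3′ Gapdh control probe set had means of 12.42 ± 0.06 (GFP) and 12.18 ± 0.05 (HOXB4) at 12 weeks and of 12.52 ± 0.02 and 12.32 ± 0.07 at 20 weeks (SD, n = 3), lower in HOXB4 cells each time.

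Pgk1 encodes phosphoglycerate kinase, the first enzyme of the pathway to yield ATP, and Pkm the pyruvate kinase of most dividing cells. Pgk1 read 10.68, 10.39 and 10.75 in GFP cells and 10.23, 10.27 and 10.40 in HOXB4 cells at 12 weeks, with 1 GFP array inside the HOXB4 range (-0.30 ± 0.19, adjusted p = 0.407). At 20 weeks it read 10.77, 10.83 and 10.38 against 10.13, 10.02 and 9.91 (-0.64 ± 0.19, 1.56-fold lower, adjusted p = 0.0481), a call that most alternatives did not keep. Pkm read 10.37, 10.43 and 10.44 against 9.82, 9.99 and 9.94 at 12 weeks, and -0.50 ± 0.14 did not pass (adjusted p = 0.0658). At 20 weeks Pkm read 10.94, 11.03 and 10.70 in GFP cells and 10.08, 10.28 and 10.02 in HOXB4 cells, 1.70-fold lower (-0.76 ± 0.14, adjusted p = 0.00331). Its arrays did not overlap at either time. Eno2 was at background, as given above, and is given no difference.

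Of the lactate dehydrogenase subunits, Ldhb was lower at 20 weeks and Ldha passed at neither time. Ldhb encodes the heart-type subunit, and Ldha the muscle-type subunit that favours lactate formation. Ldhb read 7.36, 7.68 and 7.82 in GFP cells at 12 weeks and 6.87, 6.996 and 7.16 in HOXB4 cells (-0.61 ± 0.30, adjusted p = 0.28). At 20 weeks it read 9.89, 10.10 and 8.68 against 6.70, 6.69 and 7.42, 6.13-fold lower in HOXB4 cells (-2.62 ± 0.30, adjusted p = 7.75e-05). The arrays did not overlap at either time, and the third GFP array at 20 weeks was again the lowest of its group. Ldha read 11.09, 11.03 and 11.07 against 10.72, 10.81 and 10.90 at 12 weeks and 10.74, 10.87 and 10.97 against 10.66, 10.71 and 10.55 at 20 weeks. Its values differed by -0.25 ± 0.10 (adjusted p = 0.197) and -0.22 ± 0.10 (adjusted p = 0.223), which did not pass, although the arrays did not overlap. Pdk1, a HIF-regulated pyruvate dehydrogenase kinase, differed by -0.13 and 0.17.

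Of the 7 measured oxygen sensing and other hypoxia genes, Egln3 was lower at both times and Ddit4 was higher at 12 weeks. Egln3, a prolyl hydroxylase that is itself induced by HIF, read 7.70, 7.52 and 7.62 in GFP cells and 5.84, 6.497 and 6.40 in HOXB4 cells at 12 weeks (-1.36 ± 0.25, 2.57-fold lower, adjusted p = 0.00919). By 20 weeks Egln3 read 8.33, 8.68 and 8.66 against 6.59, 5.91 and 7.11 (-2.02 ± 0.25, 4.05-fold lower, adjusted p = 0.000156). The highest of the 6 HOXB4 arrays, 7.11, lay below the lowest of the 6 GFP arrays, 7.52. Without the HOXB4 array of replicate 1 at 12 weeks, the lowest of all, the 12-week difference no longer passed.

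Ddit4, also called REDD1, restrains the growth kinase complex mTORC1 under hypoxia, glucocorticoids and other stress. It read 6.60, 6.79 and 6.58 in GFP cells at 12 weeks and 7.70, 7.97 and 8.22 in HOXB4 cells, 2.47-fold higher (1.31 ± 0.23, adjusted p = 0.00734). At 20 weeks the GFP arrays read 7.48, 7.19 and 7.21 and the HOXB4 arrays 7.68, 7.40 and 8.01, so that the groups overlapped (0.40 ± 0.23, adjusted p = 0.341). The remaining genes were Hif1a, the oxygen-regulated subunit of HIF-1, with -0.02 and -0.46, Egln1, the main oxygen sensor, with -0.02 and 0.07, Vegfa, an angiogenic factor, with 0.44 and -0.14, Bnip3, a mitophagy receptor, with -0.12 and -0.13, and Ankrd37 with -0.07 and 0.22. None of these 5 passed. In all, 16 of the 28 genes passed at neither time. Without Aldoc and Eno2, the differences of the other 14 ran from -0.47 to 0.44 at 12 weeks and from -0.63 to 0.71 at 20 weeks.

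**Figure D3:**
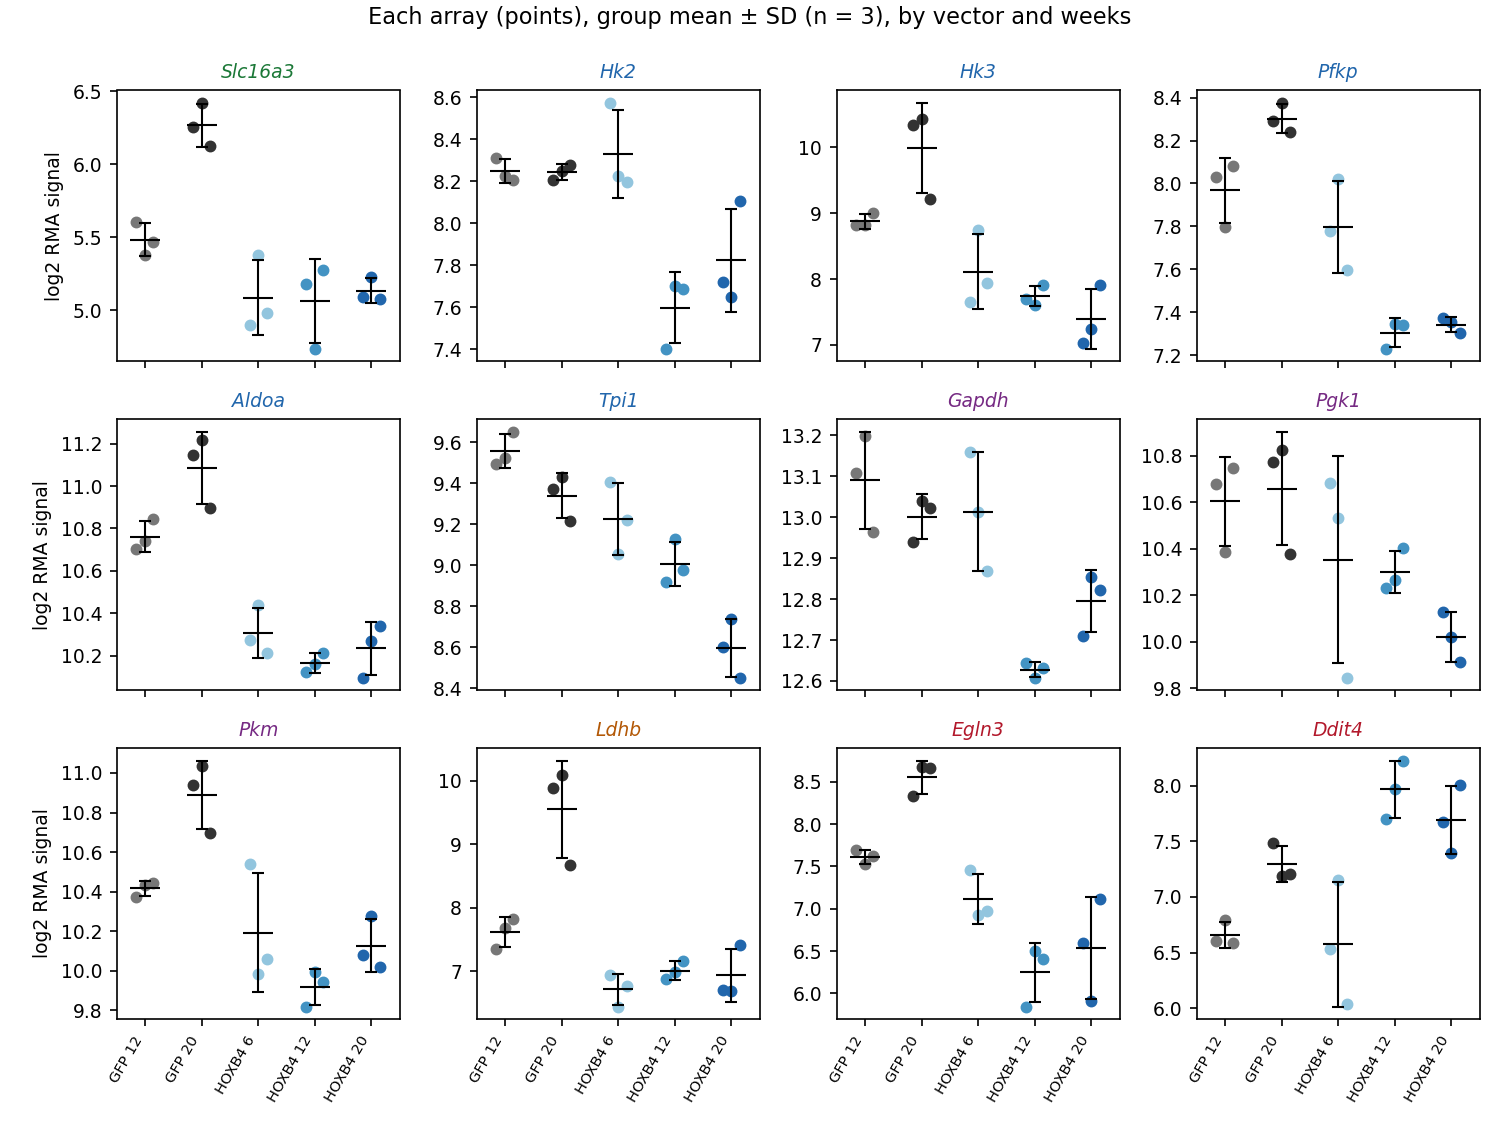
Log2 signal of the 12 genes that differed between HOXB4 and GFP cells at 12 or 20 weeks, on each array (points) with the group mean and SD (n = 3), for GFP cells (grey and black) and HOXB4 cells (blue) at the week given on the horizontal axis; the vertical axes differ between panels and do not start at 0. Egln3, Pfkp, Aldoa and Tpi1 are lower in HOXB4 cells at both shared times. The GFP arrays of Hk3 and Ldhb lie between 8.68 and 10.43 at 20 weeks, and Ddit4 has its highest group mean in HOXB4 cells at 12 weeks.

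Whether the HOXB4 difference itself changed between 12 and 20 weeks was tested as the difference of the differences. None of the 28 genes passed in limma, against 0.509% of all genes (0.123% higher, 0.386% lower). At an unadjusted p under 0.05 there were 5, Hk3, Aldoc (in part at background), Ldhb, Slc16a3 and Ddit4, against 9.80% of all genes. Ldhb was nearest to passing, with -2.01 ± 0.42 (adjusted p = 0.0505), followed by Hk3 at -1.45 ± 0.45 and Slc16a3 at -0.71 ± 0.22, both with an adjusted p of 0.211, and Ddit4 at -0.91 ± 0.33 (adjusted p = 0.317). Without the GFP array of replicate 3 at 20 weeks, 2 genes passed, Ldhb at -2.45 and Hk3 at -1.85. Over all genes 222 then passed, against 87 on all arrays. Ldhb alone of the 28 passed without the HOXB4 array of replicate 1 or of replicate 3 at 6 weeks or that of replicate 3 at 20 weeks. Over all genes 128, 152 and 82 passed there. Ldhb kept its place outside the threshold in 15 of 24 alternatives. Hk2, Hk3, Gapdh, Pgk1, Pkm, Ldhb, Slc16a3 and Ddit4 passed between vectors at 1 time and not at the other. In the main analysis this was thus not shown to be a change with time.

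The control cells were also compared with themselves, 20 against 12 weeks, a comparison that uses the same GFP arrays as those above. In GFP cells Ldhb and Slc16a3 were higher at 20 weeks and Hk1 and Slc2a3 lower, 4 of the 28 genes against 2.37% of all genes (1.23% higher, 1.14% lower). Ldhb was 3.82-fold higher (1.93 ± 0.30, adjusted p = 0.00288), from 7.36, 7.68 and 7.82 to 9.89, 10.10 and 8.68. Slc16a3 was 1.72-fold higher (0.78 ± 0.16, adjusted p = 0.0141). Hk1 fell from 9.01, 8.73 and 8.99 to 8.09, 8.28 and 7.57 (-0.93 ± 0.21, adjusted p = 0.0276), and Slc2a3 from 8.61, 8.62 and 8.64 to 7.23, 7.52 and 7.76 (-1.12 ± 0.27, adjusted p = 0.0412). The arrays of the 2 ages did not overlap for these 4 genes, nor for 14 of the 24 that did not pass. The share of all genes without overlap was not counted, so no excess among the 28 is read from this. Egln3 (0.94 ± 0.25, adjusted p = 0.0716) and Hk3 (1.11 ± 0.32, adjusted p = 0.0915) had higher values at 20 weeks without passing, and the median over the 28 genes was 0.00 against -0.04 over all genes. The count was 1 (Ldhb) without the GFP array of replicate 2 or of replicate 3 at 12 weeks or of replicate 1 at 20 weeks, and 2 without that of replicate 1 at 12 weeks or of replicate 2 at 20 weeks. Without the GFP array of replicate 3 at 20 weeks 4 genes passed, with Hk3 in place of Hk1. Over all genes the count was 406 on all arrays, 192, 243 and 204 without replicate 1, 2 and 3 at 12 weeks, and 193, 269 and 503 without replicate 1, 2 and 3 at 20 weeks.

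In HOXB4 cells the 6-week arrays were the start of 2 comparisons, to 12 and to 20 weeks, which therefore share them. From 6 to 12 weeks Ddit4 rose from 6.53, 7.15 and 6.04 to 7.70, 7.97 and 8.22 (2.62-fold, 1.39 ± 0.23, adjusted p = 0.0163), and Hk2 fell from 8.57, 8.22 and 8.20 to 7.40, 7.70 and 7.69 (-0.73 ± 0.14, adjusted p = 0.0216). These were 2 of the 28 genes, against 1.57% of all genes (1.25% higher, 0.316% lower). The arrays did not overlap for either, nor for 12 of the 26 that did not pass. Here too the share of all genes without overlap was not counted, so no excess is read from this. The call on Hk2 was lost without the 6-week array of replicate 1, at which Ddit4 alone passed. Neither passed without the HOXB4 array of replicate 2 or that of replicate 3 at 12 weeks, where none of the 17097 genes passed in limma (against 268 on all arrays), and only Ddit4 did without that of replicate 1 at 12 weeks. Without the 6-week array of replicate 2 the count was 4, as it was without the HOXB4 array of replicate 2 or of replicate 3 at 20 weeks, and it was 3 without the 6-week array of replicate 3 or the HOXB4 array of replicate 1 at 20 weeks. Over all genes 121, 923 and 245 passed without the 6-week array of replicate 1, 2 and 3. Without the HOXB4 array of replicate 1 at 12 weeks 51 did. Without that of replicate 1, 2 and 3 at 20 weeks 304, 317 and 425 did.

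From 6 to 20 weeks Slc2a1 and Ddit4 were higher and Pfkp, Tpi1 and Ldha lower, 5 of the 28 genes against 4.66% of all genes (3.30% higher, 1.36% lower). Slc2a1 rose from 7.24, 7.73 and 7.42 to 8.20, 8.11 and 8.12 (0.68 ± 0.15, 1.60-fold, adjusted p = 0.0214), and Ddit4 from its 6-week values to 7.68, 7.40 and 8.01 (1.12 ± 0.23, adjusted p = 0.0174). Tpi1 fell from 9.41, 9.05 and 9.22 to 8.60, 8.74 and 8.45 (-0.63 ± 0.12, adjusted p = 0.0108). Ldha fell from 11.23, 11.03 and 11.05 to 10.66, 10.71 and 10.55 (-0.47 ± 0.10, adjusted p = 0.022), and Pfkp from 7.78, 8.02 and 7.59 to 7.37, 7.35 and 7.30 (-0.46 ± 0.12, adjusted p = 0.042). The call on Pfkp was kept in 7 of 24 alternatives, and those on the other 4 genes in 19 to 22. Without the 6-week array of replicate 1 the genes that passed were Tpi1, Ddit4 and Pdk1, and without the HOXB4 array of replicate 2 at 20 weeks Tpi1, Ldha and Ddit4, 3 in each case. Over all genes 655 and 397 then passed, against 796 on all arrays. Between 12 and 20 weeks none of the 28 genes passed in limma in HOXB4 cells, against 0.252% of all genes (0.0643% higher, 0.187% lower), and 2 (Tpi1 and Pfkm) had an unadjusted p under 0.05, against 11.2% of all genes.

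A second probe set, which uses other probes of the same gene, gave a further reading for 17 of the 28 genes, with 23 such probe sets. Tested with adjustment over all named probe sets, those of the genes lower or higher at 12 weeks had the same sign in 6 of 6 cases and passed in 2, and at 20 weeks they had the same sign in 8 of 8 and passed in 7. The other probe set of Egln3 gave -1.75 ± 0.19 at 12 weeks (adjusted p = 0.000632) and -2.44 ± 0.19 at 20 weeks. The other probe set of Ldhb gave -2.91 ± 0.36 at 20 weeks (adjusted p = 0.000169), that of Tpi1 -1.13 ± 0.20 (adjusted p = 0.00224) and that of Pfkp -0.62 ± 0.17 (adjusted p = 0.0323), and the 3 others of Aldoa lay between -0.72 and -0.85. The other probe set of Hk1 gave -0.30 ± 0.19 for GFP cells at 20 against 12 weeks and did not pass, whereas the tested probe set did. One further probe set of Slc2a3 was higher in HOXB4 cells at 20 weeks (0.64 ± 0.14, adjusted p = 0.0107), which the tested probe set was not. All probe sets of Aldoa and the tested ones of Tpi1, Gapdh and Slc2a3 carry name endings that mark probes shared with other transcripts, so copies of these genes may add to the signal.

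**Figure D4:**
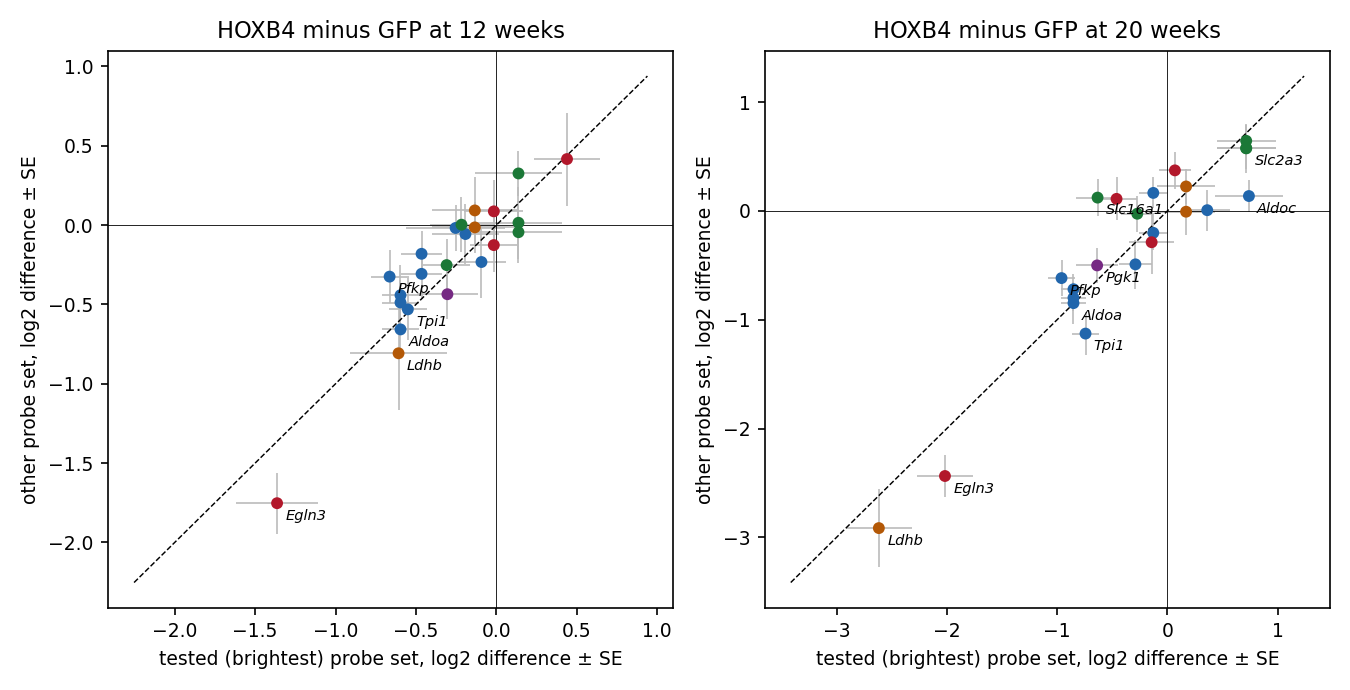
HOXB4 minus GFP log2 difference of the other probe sets of a gene (vertical axis) against that of the tested, brightest probe set (horizontal axis) at 12 weeks (left) and 20 weeks (right), with bars of 1 SE, the line of equality dashed and points coloured by role as in the map of array values. Egln3 lies far below 0 on both axes at both times and Ldhb at 20 weeks, at -2.62 and -2.91.

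Genes of the neighbouring pathways outside the 28 were counted from lists. Of 17 further glycolysis genes, 0 passed in limma at 12 weeks (3 had an unadjusted p under 0.05) and 1 at 20 weeks, Adpgk, an ADP-dependent glucokinase, at -0.54 ± 0.14 (adjusted p = 0.0213). Of 5 measured genes of the pentose phosphate pathway, which branches from glycolysis to make NADPH and ribose, 3 were lower at both times. These were Pgd, the 6-phosphogluconate dehydrogenase, at -0.90 ± 0.14 and -1.34 ± 0.14, Rpia, the ribose phosphate isomerase, at -0.43 ± 0.11 and -0.88 ± 0.11, and Taldo1, transaldolase, at -0.66 ± 0.17 and -1.06 ± 0.17. Of 10 genes of pyruvate entry into mitochondria, Pdk3, a pyruvate dehydrogenase kinase, was lower at both times (-0.69 and -0.78). At 20 weeks Mpc1, a subunit of the mitochondrial pyruvate carrier, was lower (-1.05 ± 0.20, adjusted p = 0.00428) and Pdk2, another such kinase, higher (0.74 ± 0.16, adjusted p = 0.00979).

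Of 7 gluconeogenesis genes, 2 were lower at both times, Fbp1, fructose-1,6-bisphosphatase, at -1.61 ± 0.34 and -4.37 ± 0.34, and G6pc3, a glucose 6-phosphatase, at -0.70 and -0.82. Fbp1 also passed when the 20-week difference was tested against the 12-week one (-2.76 ± 0.49, adjusted p = 0.0181). Of 21 further HIF sensing and hypoxia genes, Higd1a, a mitochondrial protein induced by hypoxia, was lower at 12 weeks (-0.61 ± 0.16, adjusted p = 0.0466). At 20 weeks Ero1a, an oxidase of disulphide formation, was lower (-1.62 ± 0.17, adjusted p = 4.09e-05) and Ndrg1, a hypoxia-induced stress protein, higher (1.72 ± 0.17, adjusted p = 2.83e-05). Both also passed that test, at -1.23 ± 0.24 (adjusted p = 0.0364) and 1.48 ± 0.25 (adjusted p = 0.0122). In GFP cells at 20 against 12 weeks Ero1a was higher (0.77 ± 0.17) and Ndrg1 lower (-1.58 ± 0.17).

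Markers of other cell types moved with the vectors and with age, and in bulk RNA fewer cells of a type and less RNA per cell cannot be told apart. Of 7 markers of granulocyte-monocyte progenitors, a list that includes Mpo and Elane, 6 were lower in HOXB4 cells at 12 weeks and 7 at 20 weeks. Mpo had the smallest difference of the 7 at 12 weeks, with means of 12.64 in GFP and 11.62 in HOXB4 cells. The summed level of the 7 markers (log2 of the summed signals) was 13.75 to 13.95 in GFP against 12.21 to 12.59 in HOXB4 cells at 12 weeks. At 20 weeks it was 13.97 to 14.53 against 11.03 to 12.20. The 10 mature neutrophil markers went 2 ways. At 12 weeks 1 was higher in HOXB4 cells and none lower, with a summed level of 10.60 to 11.52 in GFP against 12.54 to 13.07 in HOXB4 cells, and at 20 weeks 8 were lower, with 14.05 to 14.22 against 10.62 to 12.17. None of 7 monocyte and macrophage markers passed in limma between vectors at 12 weeks (5 had an unadjusted p under 0.05), with summed levels of 9.53 to 9.74 in GFP and 9.51 to 9.61 in HOXB4 cells. At 20 weeks 4 of them were lower in HOXB4 cells and none higher, with 10.94 to 11.34 against 9.28 to 9.46. Whether the 6 genes lower at 12 weeks followed any of these markers was not tested, and vector and marker levels differed together on the same arrays.

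Within GFP cells, from 12 to 20 weeks, 6 of the 10 neutrophil and 4 of the 7 monocyte and macrophage markers rose, over the same arrays on which Ldhb and Slc16a3 rose. On these arrays, on which Hk1 and Slc2a3 fell, 5 of 9 megakaryocyte markers fell, with summed levels of 10.49 to 10.91 at 12 and 8.75 to 9.41 at 20 weeks, as did 2 of 5 stem cell and LSK markers (11.11 to 11.23 and 10.30 to 10.60). Of 8 erythroid markers 1 rose and 2 fell. Of 8 B cell markers 1 rose by adjusted p, while all 8 differences were above 0, with a median of 1.75. An unadjusted p under 0.05 in limma was reached by 7 of the 8 B cell and 7 of the 8 erythroid markers. In HOXB4 cells, from 6 to 20 weeks, 4 of 7 granulocyte-monocyte progenitor markers fell, from a summed level of 12.50 to 13.51 to one of 11.03 to 12.20. Over that time 2 of 8 B cell markers and 1 stem cell and LSK marker rose, and 1 eosinophil and 1 erythroid marker fell. From 6 to 12 weeks 1 of 10 neutrophil and 1 of 8 B cell markers rose.

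B cell markers were higher in HOXB4 cells for 7 of 8 at 12 weeks and 1 of 8 at 20 weeks, with summed levels of 9.09 to 9.32 in GFP against 12.17 to 12.68 in HOXB4 cells and 10.15 to 12.11 against 12.57 to 13.43. Eosinophil markers were lower for 2 and 3 of 5, and megakaryocyte markers higher for 2 and 6 of 9. Of 5 stem cell and LSK markers, 2 were lower at 12 weeks and 2 higher at 20 weeks, and of 6 mast cell and basophil markers 1 and 2 were higher and 1 lower each time. None of 8 T and NK cell markers passed in limma at either time (3 and 1 had an unadjusted p under 0.05), and of 8 erythroid markers 1 was higher, at 20 weeks. None of 8 markers of cycling cells passed at 12 or 20 weeks in limma (2 and 1 had an unadjusted p under 0.05), with medians of 0.04 and 0.15 and summed levels of 13.12 to 13.16 (GFP) and 13.16 to 13.27 (HOXB4) at 12 weeks. The part of these cell types in the differences of the 28 genes was not tested.

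**Figure D5:**
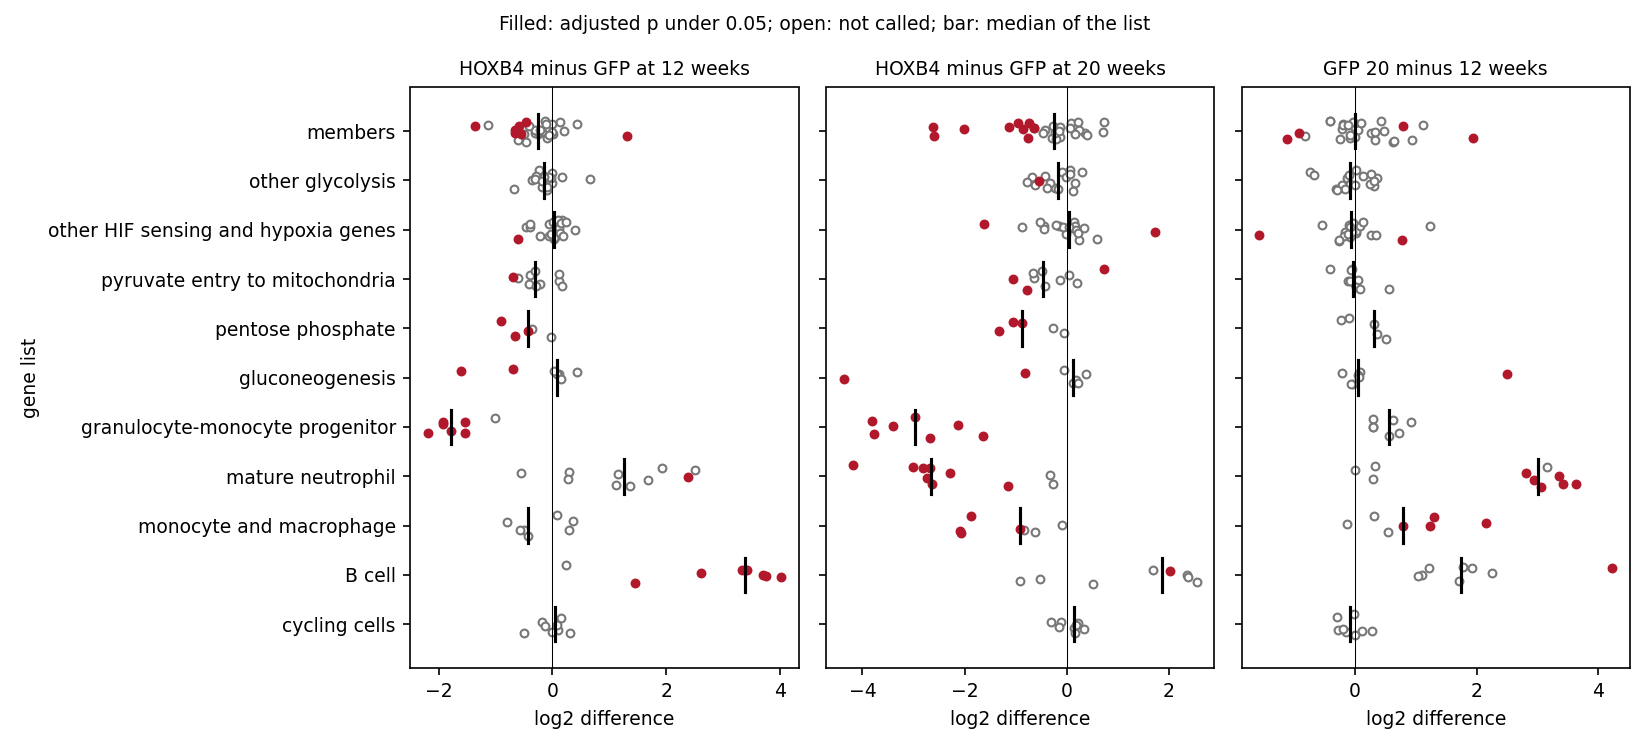
Log2 difference of each measured gene in the 28 glycolysis and hypoxia genes, the neighbouring pathways and 5 marker lists (rows), for HOXB4 minus GFP at 12 and 20 weeks and GFP at 20 minus 12 weeks (panels, with their own scales), filled at an adjusted p under 0.05, with a bar at the median of the list. The granulocyte-monocyte progenitor medians lie at -1.79 and -2.97 in the first 2 panels, and those of the 28 genes at -0.25 in both.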

How the data were processed

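Gene expression was measured on 15 arrays. The authors deposited log2 values for 45141 probe sets made by Partek 6.5 with RMA, as the submitters' processing notes state. RMA subtracts background, equalises the arrays' distributions and combines the probes of a set. The platform annotation named 28898 probe sets with 1 symbol, 551 with several and 15692 with none. By gene identifier, 28689 of the 28898 were matched to a RefSeq gene and took its symbol, and the rest kept the platform's symbol. The brightest probe set stood for each of 17097 genes.

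Computed here with limma 3.58.1 (R 4.3.3) were a mean per group over all 15 arrays (10 residual degrees of freedom), moderated tests of 7 comparisons, two-sided, and Benjamini-Hochberg adjustment over all genes. A gene passed at an adjusted p under 0.05. With 3 arrays against 3, an exact permutation test of 1 gene cannot go below 0.1, so none was used. Precision is limited by the number of arrays, and without detection calls a low value may be background. The code was tested on simulated data. Alternatives covered normalization, centring, dim genes, probe sets, moderation, weights, blocks and each array left out. The 28 genes, the pathway lists and the marker lists were chosen with earlier results of these data known. Pathway genes outside the 28 were named only where they passed, at most 4 per list and comparison. Hoxb4, Kit and Ly6a were named as checks of the labels, and Mpo and Elane as examples of a marker list. Promoter letters were read from RefSeq (GRCm38.p6).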

Additional observations from a re-analysis of the deposited data

How the results depend on the processing

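Of 720 results for single genes (30 results under 24 alternatives), 618 kept their direction and their side of the threshold, 90 no longer passed, 12 newly passed and 0 changed direction. Since 27 of the 30 had passed, only the other 3, with 72 of the 720, could newly pass. Fitted on only the groups compared, 11 genes passed between vectors at 12 weeks (against 7), 1 in the difference between times (against 0), 0 from 6 to 12 weeks (against 2) and 0 from 6 to 20 weeks (against 5). Over all genes these counts went from 688 to 2593, 87 to 183, 268 to 20 and 796 to 1. With array weights these became 11 at 12 weeks, 3 in the difference between times, 16 in GFP cells with age (against 4) and 0 from 6 to 20 weeks, and over all genes 2791, 563, 1892 (against 406) and 231. In the difference between times 1 gene (Ldhb) passed with the dimmest genes removed, with a second quantile normalization and with a variance trend. Over all genes 78, 82 and 100 then passed. The cause of these changes was not tested.

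Leaving out 1 array at a time gave 2 to 10 genes at 12 weeks, 8 to 11 at 20 weeks, 0 to 2 in the difference between times, 1 to 5 in GFP cells with age, 0 to 4 from 6 to 12 weeks, 0 from 12 to 20 weeks and 3 to 6 from 6 to 20 weeks. Over all genes the counts moved too, from 214 to 957 at 12 weeks and from 798 to 1829 at 20 weeks. They ran from 38 to 222 in the difference between times and from 192 to 511 in GFP cells with age. In HOXB4 cells they were 0 to 923 from 6 to 12 weeks, 1 to 101 from 12 to 20 weeks and 397 to 1116 from 6 to 20 weeks. Averaging a gene's probe sets moved Hk1 in GFP cells with age from -0.93 to -0.62. Adjustment over all named probe sets, chosen after seeing the data, gave 7 and 8 genes at 12 and 20 weeks, and 605 and 1485 over all genes. Over all genes, a second quantile normalization changed the split of higher to lower calls from 564 and 232 to 402 and 329 (6 to 20 weeks), from 214 and 54 to 154 and 72 (6 to 12 weeks) and from 11 and 32 to 2 and 30 (12 to 20 weeks).

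Replicate numbers gave no sign of pairing the arrays, and the labels do not say whether they do. Same-numbered arrays correlated at -0.17 to 0.12 in their deviations from the group means (30 pairs), and 4 of 15 arrays correlated best with their own number. With the replicate block 7 genes passed at 12 weeks, 8 at 20 weeks, 0 in the difference between times, 3 in GFP cells with age, 2 from 6 to 12 weeks, 0 from 12 to 20 weeks and 4 from 6 to 20 weeks. Over all genes these counts were, in the same order, 586, 1434, 76, 352, 170, 14 and 643.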
